A study of Mus musculus with 5 samples.

Results

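The genes described here are 43 genes that run mitosis: the cyclin-CDK engine, the mitotic kinases, the spindle checkpoint, the kinetochore, the spindle motors, the cytokinesis proteins and the anaphase ubiquitin ligase. They were taken as a list of gene symbols, and every probe that the platform annotation gives one of those symbols was read on every array. Of the 43 genes, 38 had a probe, and 28 of these had a probe above background and were tested, among 8927 genes tested in all. The cells were mouse embryonic fibroblasts (MEFs) of strain C57BL/6 that have no Dicer, the RNase that processes microRNA precursors. They were transfected, with the reagent Lipofectamin 2000, with siRNA against TARBP2, a double-stranded RNA-binding protein that partners Dicer, or with control siRNA. Total RNA was taken 48 hours later and hybridised to 1-colour Illumina BeadChips. The knockdown group has 2 arrays with a different siRNA on each, siTARBP2-1 and siTARBP2-2. The controls are 3 arrays, labelled siControl-1, siControl-2 and siControl-3. All 5 arrays thus come from Dicer-null cells. The labels name 1 cell line and do not say that the arrays are separate cultures, so the p-values rest on array-to-array spread that may be technical only.

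Cells enter mitosis when CDK1 bound to cyclin A or B outweighs its inhibitory phosphorylation, which CDC25 phosphatases remove. Kinetochores, built on centromeric chromatin that carries the histone variant CENP-A, then attach chromosomes to the spindle, and the checkpoint holds back the anaphase-promoting complex until every chromosome is attached. Most of these genes are transcribed in G2 and M phase and are repressed earlier in the cycle by the DREAM complex, which binds CHR elements through its MuvB core, with NF-Y at CCAAT boxes and FOXM1 and B-MYB contributing to their activation. Their RNA level in a culture tends to follow how many cells divide, and in bulk RNA fewer dividing cells and less RNA per cell cannot be told apart.

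The promoter table of RefSeq (mouse GRCm38.p6) covers 250 bases before to 50 bases after each gene's start and matched 35 of the 43 genes. Of these 35 promoters, 27 (77.1%) held a CHR motif, TTTGAA or TTCGAA on either strand, against 19.4% of the first promoters of 27025 genes. A CCAAT box on either strand was in 28 of the 35 (80%), against 37.9% of the same genes, and 24 (68.6%) held both motifs, against 7.7%. Birc5, Mad2l1, Nuf2 and Pttg1 held neither. A CHR motif and a CCAAT box can share at most an end base, and a match is a description of the sequence, not a bound site. In 105 other mitotic genes the shares were 43.8% for the CHR motif and 58.1% for the CCAAT box. No source used here names a build for the array files, and the coordinates are those of RefSeq. Promoter windows of 4 genes, 120 bases before to 30 bases after the start and 5′ to 3′ on the gene's strand, are shown because Cenpa and Cdc25b were lower with siTARBP2-1 than with siTARBP2-2, Spc25 is a kinetochore gene with a difference of the same sign, and Birc5 was above all controls on both knockdown arrays. The choice was made after their values were seen. CHR motifs and CCAAT boxes (ATTGG where they lie on the other strand) are in capitals. The windows are Cenpa at chr5:30666766-30666915, plus strand, Cdc25b at chr2:131186828-131186977, plus strand, Spc25 at chr2:69206184-69206333, minus strand, and Birc5 at chr11:117849117-117849266, plus strand.
Cenpa: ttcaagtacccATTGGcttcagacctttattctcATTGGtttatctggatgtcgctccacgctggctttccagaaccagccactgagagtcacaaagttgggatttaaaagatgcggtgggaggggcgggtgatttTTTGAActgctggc
Cdc25b: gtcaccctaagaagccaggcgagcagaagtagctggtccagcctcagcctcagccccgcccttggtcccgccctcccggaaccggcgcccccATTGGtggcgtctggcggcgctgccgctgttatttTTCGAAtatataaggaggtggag
Spc25: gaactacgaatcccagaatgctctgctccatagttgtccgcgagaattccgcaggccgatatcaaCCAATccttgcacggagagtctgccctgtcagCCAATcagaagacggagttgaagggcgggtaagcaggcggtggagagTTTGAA
Birc5: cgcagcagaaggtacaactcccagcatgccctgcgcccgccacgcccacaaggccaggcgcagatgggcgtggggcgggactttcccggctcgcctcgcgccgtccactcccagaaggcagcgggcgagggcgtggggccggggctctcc
Cenpa and Spc25 each held 1 CHR motif and 2 CCAAT boxes in this window, Cdc25b held 1 of each, and Birc5 held neither, which says only that these letters are not in that window.

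**Figure D1:**
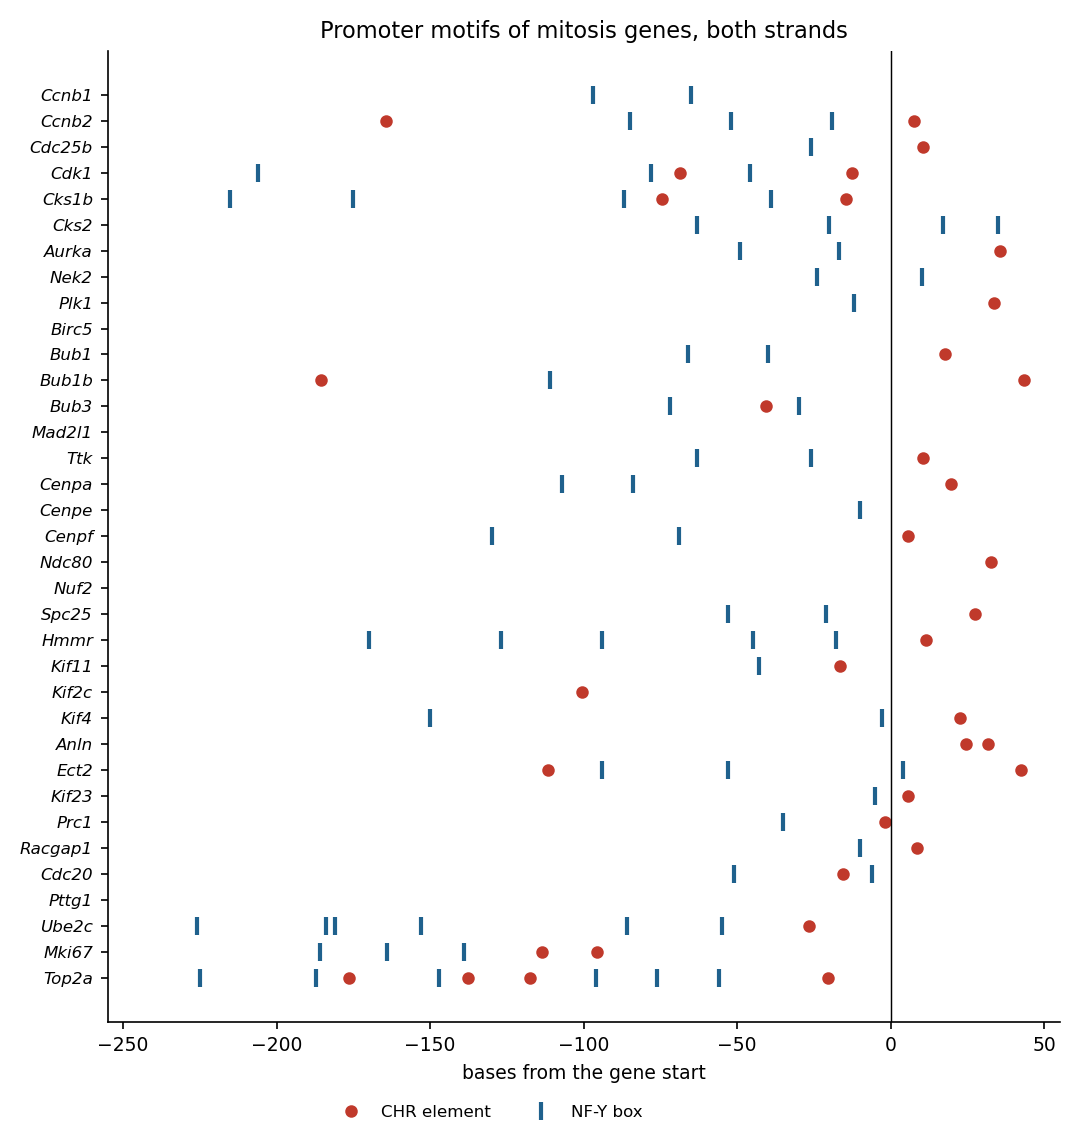
Positions of the CHR element and of the CCAAT box (labelled NF-Y box) in the RefSeq promoters of the mitosis genes, by distance from the gene's start in bases. The CHR element is present in 27 of 35 promoters and the CCAAT box in 28 of 35.

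The arrays were similar in brightness, with median raw signals of 79 to 81.9 and 12445 to 13051 probes above background. Tarbp2 itself checked the labels. Its normalized log2 signal was 7.67 with siTARBP2-1 and 7.18 with siTARBP2-2, against 9.5, 9.55 and 9.36 on the control arrays, so neither knockdown array overlapped the controls. It fell to 28.7% of the control level with siTARBP2-1 (log2 difference -1.80 ± 0.12, SE; limma adjusted p = 0.0012) and to 20.4% with siTARBP2-2 (-2.29 ± 0.12; limma adjusted p = 0.00129). Of 12 fibroblast markers with a probe, 9 were above background, and Thy1, Postn and Lum were not. The raw signal summed over all 12, each by its brightest probe, was 12436.2 to 14383.7 on the TARBP2 siRNA arrays and 13515.5 to 14566.6 on the control arrays. None of 6 endothelial markers was above background. Of 5 macrophage and leukocyte markers only Aif1 was, with Ptprc, Adgre1, Lyz2 and Itgam below. The markers above background were Cdh1, Krt8 and Krt18 of 6 epithelial ones, Des of 5 muscle ones, and Tubb3 and Map2 of 5 neural ones.

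With siTARBP2-1, 3 mitosis genes were called lower and none higher, each read from its brightest kept probe. The 3 were Cenpa (56.4% of the control level), Foxm1 (64.5%) and Cdc25b (68.4%), which act at the centromere, in mitotic transcription and in mitotic entry. That is 3 of 28 genes called lower, where 3.78% of all genes tested were called lower, and 0 of 28 called higher, where 3.88% were (7.65% in either direction). At an unadjusted p under 0.05, limma gave 4 lower and 1 higher, where 12.3% and 12.4% of all genes were. Of the 28 genes, 23 (82.1%) had a negative difference, against 51.8% of all genes, and their median log2 difference was -0.16, against -0.01 over all genes. Each control array minus the other controls was also uneven in sign for these 28 genes. On siControl-1, siControl-2 and siControl-3, 7, 18 and 21 were negative, with medians of 0.07, -0.03 and -0.04. With siTARBP2-2, limma called 0 of the 28 in either direction, where 1.75% of all genes were called higher and 2.52% lower (4.27% in either direction). At an unadjusted p under 0.05 it gave 3 higher and 0 lower, where 11.5% and 11.4% of all genes were. There 15 of the 28 differences were positive, and the median was 0.06, against 0.02 over all genes. It was 0.09 without siControl-1, 0.04 without siControl-3 and 0.02 with a gene's probes averaged. Of 10 mitosis genes with several kept probes, all probes of a gene had the same sign in 5 with siTARBP2-2 and in 8 with siTARBP2-1. A second, dimmer probe of Anln was called higher with siTARBP2-1 (0.54, limma adjusted p = 0.0444). The siTARBP2-1 and siTARBP2-2 comparisons share the same 3 control arrays. Each siRNA is 1 array, assumed to vary like the controls. Without siControl-2, Cenpa alone of the 3 passed, with limma adjusted p of 0.0824 for Foxm1 and 0.112 for Cdc25b, and Cdc25b also missed without siControl-3 (0.0733). With no background correction, Ndc80 passed as well (limma adjusted p = 0.0394). That setting called 605 of 8927 genes lower with siTARBP2-1, against 337 in the fit reported.

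**Figure D2:**
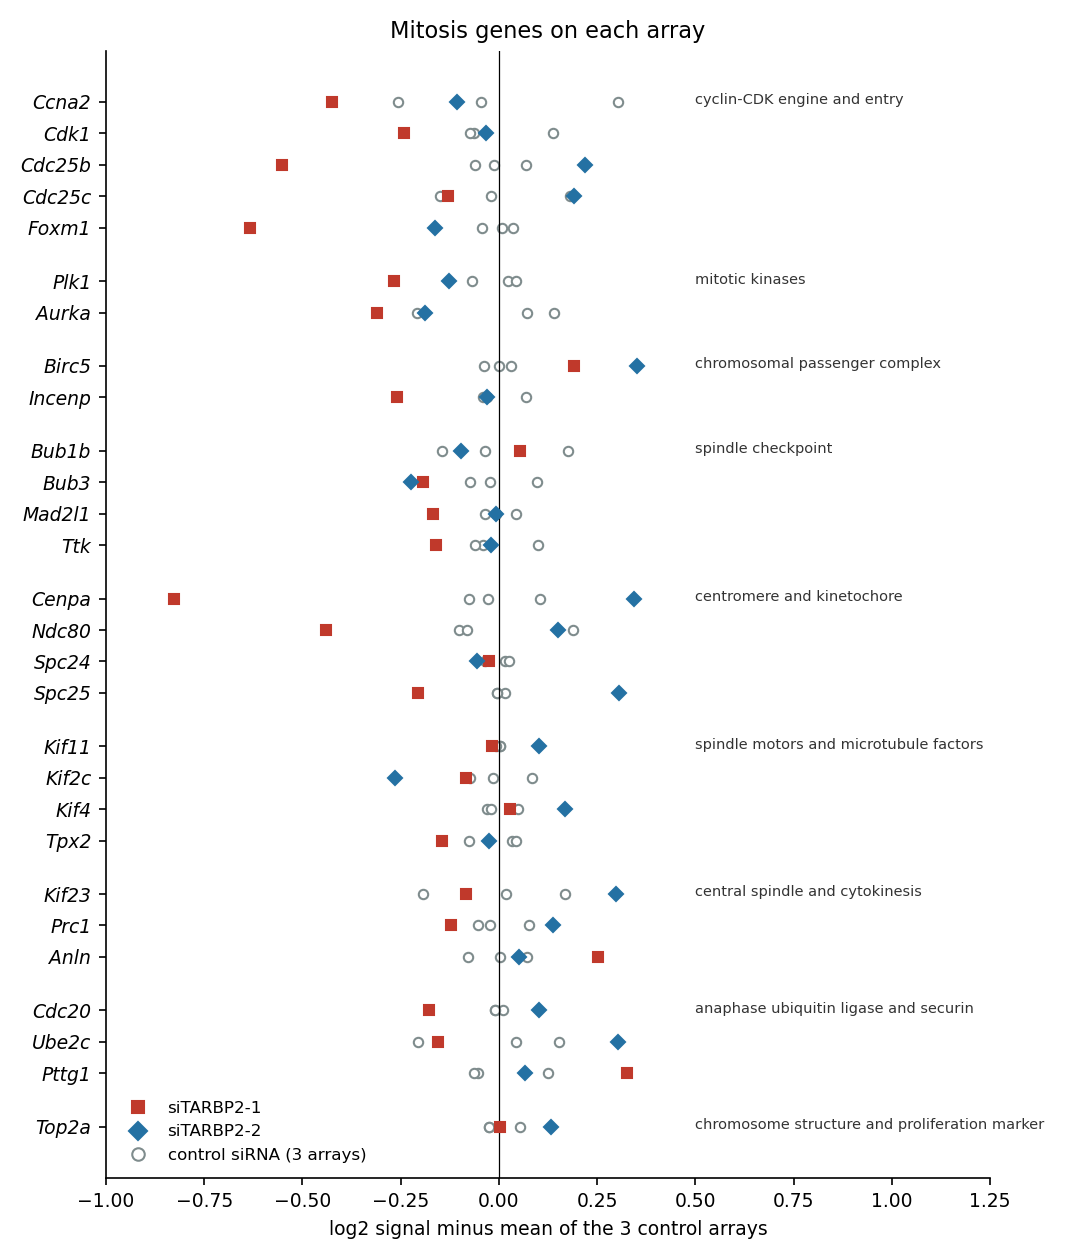
Normalized log2 signal of each of the 28 measured mitosis genes minus its mean over the 3 control arrays (x axis, log2 units), for the siTARBP2-1, siTARBP2-2 and control arrays. Cenpa, Foxm1 and Cdc25b lie furthest left with siTARBP2-1, at -0.83, -0.63 and -0.55, while siTARBP2-2 lies on both sides of 0.

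The cyclin-CDK engine and its activators come first in mitosis. Foxm1 encodes the transcription factor that activates G2/M genes. Its log2 signal was 8.30 with siTARBP2-1 and 8.77 with siTARBP2-2, against 8.89, 8.97 and 8.94 on the control arrays. Both knockdown arrays lay below all controls. The difference was -0.63 ± 0.11 (SE) with siTARBP2-1 (limma adjusted p = 0.0216) and -0.16 ± 0.11 with siTARBP2-2 (limma adjusted p = 0.427). The second Foxm1 probe gave -0.68 with siTARBP2-1 (limma adjusted p = 0.0269). Cdc25b, a phosphatase that activates CDK1, had a log2 signal of 6.93 with siTARBP2-1 and 7.70 with siTARBP2-2, against 7.42, 7.47 and 7.55 on the control arrays. The siTARBP2-1 array was below every control and the siTARBP2-2 array above every control. Its difference was -0.55 ± 0.12 (SE) with siTARBP2-1 (limma adjusted p = 0.037) and 0.22 ± 0.12 with siTARBP2-2 (limma adjusted p = 0.316).

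Cdk1, the kinase that drives entry, had a log2 signal of 11.40 with siTARBP2-1 and 11.61 with siTARBP2-2, against 11.78, 11.58 and 11.57 on the control arrays. The siTARBP2-1 array was below all controls and the siTARBP2-2 array was among them, and neither difference passed (limma adjusted p = 0.305 and 0.914, in that order). A second, dim Cdk1 probe differed by -0.40 with siTARBP2-1 and by -0.08 with siTARBP2-2. Ccna2, the cyclin A gene, was dim, at 5.68 with siTARBP2-1 and 6.00 with siTARBP2-2, against 5.85, 6.06 and 6.41 on the control arrays. It spread by 0.28 (SD) between controls, and its difference of -0.43 with siTARBP2-1 did not pass (limma adjusted p = 0.253). Cdc25c, a sister phosphatase, differed by -0.13 with siTARBP2-1 and by 0.19 with siTARBP2-2. All 5 measured genes of this group were negative with siTARBP2-1, with a median log2 difference of -0.43, against a median of -0.03 with siTARBP2-2. Ccnb2, Cks1b and Cks2 had a probe but none above background, and Ccnb1 was not analysed here.

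Plk1 and Aurka, the kinases that build the spindle poles, did not pass either test. Plk1 had a log2 signal of 10.59 with siTARBP2-1 and 10.73 with siTARBP2-2, against 10.88, 10.79 and 10.90 on the control arrays. Both knockdown arrays lay below every control, and the differences were -0.27 (limma adjusted p = 0.211) and -0.12 (limma adjusted p = 0.565). Aurka had 11.09 and 11.21 with siTARBP2-1 and siTARBP2-2, against 11.54, 11.47 and 11.19 on the control arrays, so only the siTARBP2-1 array was below all of them. It differed by -0.31 with siTARBP2-1 and by -0.18 with siTARBP2-2 (limma adjusted p = 0.273 and 0.529, in that order). Nek2 was below background. In the chromosomal passenger complex, which corrects faulty attachments, Birc5 (survivin) had a log2 signal of 10.72 with siTARBP2-1 and 10.88 with siTARBP2-2, against 10.53, 10.56 and 10.49 on the control arrays. It was the only measured mitosis gene above all controls on both knockdown arrays, where 16.2% of all genes were. Its differences of 0.19 and 0.35 did not pass (limma adjusted p = 0.333 and 0.127, in that order). The dimmer kept Birc5 probes gave 0.24 and 0.06 with siTARBP2-1, and 0.31 and 0.14 with siTARBP2-2. The scaffold Incenp differed by -0.26 with siTARBP2-1 and by -0.03 with siTARBP2-2, and Aurkb was not analysed here.

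None of the 4 measured spindle checkpoint genes passed either test. Mad2l1, the MAD2 gene, had a log2 signal of 10.40 with siTARBP2-1 and 10.56 with siTARBP2-2, against 10.61, 10.56 and 10.53 on the control arrays. Bub3 had 8.04 and 8.01 with siTARBP2-1 and siTARBP2-2, against 8.33, 8.16 and 8.21 on the control arrays, and both knockdown arrays lay below all controls. Its differences were -0.20 and -0.22, with limma adjusted p of 0.366 and 0.323. Bub1b differed by 0.06 with siTARBP2-1 and by -0.09 with siTARBP2-2, and Ttk, the MPS1 kinase, by -0.16 and -0.03. Bub1 was below background.

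Of the centromere and kinetochore genes, Cenpa, which encodes the histone that marks the centromere, had the largest difference. Its log2 signal was 11.48 with siTARBP2-1 and 12.65 with siTARBP2-2, against 12.41, 12.23 and 12.28 on the control arrays. The siTARBP2-1 array was below every control and the siTARBP2-2 array above every control. The difference was -0.83 ± 0.12 (SE) with siTARBP2-1 (limma adjusted p = 0.0122) and 0.34 ± 0.12 with siTARBP2-2 (limma adjusted p = 0.166). Ndc80, which carries the microtubule-binding end of the kinetochore, had a log2 signal of 9.51 with siTARBP2-1 and 10.10 with siTARBP2-2, against 10.14, 9.85 and 9.87 on the control arrays. Its difference of -0.44 with siTARBP2-1 had a limma adjusted p of 0.131, and a second, dim probe gave 0.17. Spc25, of the same complex, had 9.57 and 10.08, against 9.79, 9.77 and 9.77 on the control arrays. It lay below the controls with siTARBP2-1 and above them with siTARBP2-2 (limma adjusted p = 0.283 and 0.161, in that order). Spc24, its partner in the complex, differed by -0.02 and -0.05, and a second, dimmer Spc24 probe by -0.07 and 0.20. Cenpe and Nuf2 were below background and Cenpf was not analysed here.

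**Figure D3:**
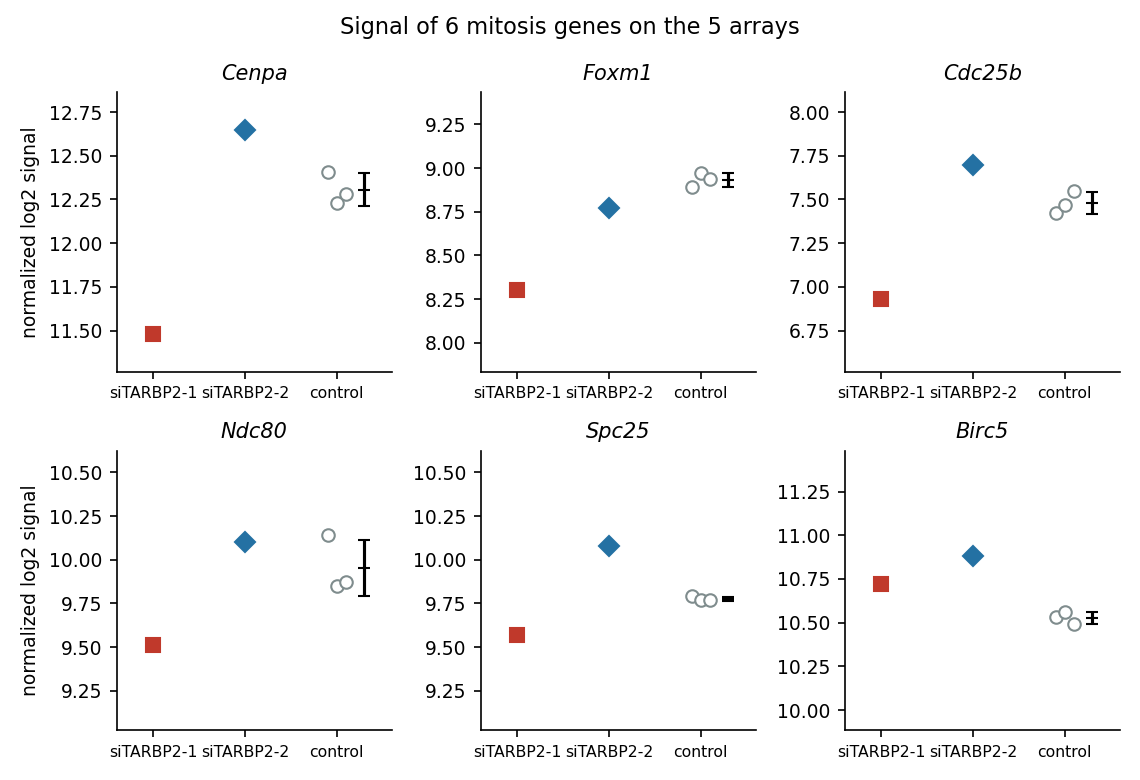
Normalized log2 signal on each array for 6 mitosis genes, with siTARBP2-1 and siTARBP2-2 left of the controls, and the mean ± SD of the 3 control arrays drawn for the controls. Every panel spans 1.6 log2 units, so Cenpa, at 11.48 with siTARBP2-1 and 12.65 with siTARBP2-2, shows the widest gap.

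None of the 4 measured spindle motor and microtubule genes passed either test. Kif11, the motor that separates the poles, differed by -0.02 with siTARBP2-1 and by 0.11 with siTARBP2-2. Kif2c, a microtubule depolymerase, had 9.69 and 9.51 with siTARBP2-1 and siTARBP2-2, against 9.86, 9.76 and 9.70 on the control arrays, with both knockdown arrays below. It was the lowest mitosis gene with siTARBP2-2 at -0.27 (limma adjusted p = 0.237), against -0.08 with siTARBP2-1. Kif4, which works on chromosome arms and the central spindle, differed by 0.03 and 0.17, and Tpx2, an activator of Aurora A, by -0.14 and -0.02. The dimmer kept Kif4 probes gave -0.07 and -0.15 with siTARBP2-1, and -0.04 and 0.11 with siTARBP2-2. Among the cytokinesis genes, Prc1, which bundles the central spindle, differed by -0.12 and 0.14, and Kif23, of centralspindlin, by -0.08 and 0.30. Anln, which organises the contractile ring, had a log2 signal of 12.81 with siTARBP2-1 and 12.61 with siTARBP2-2, against 12.63, 12.56 and 12.48 on the control arrays. Its difference of 0.26 with siTARBP2-1 did not pass (limma adjusted p = 0.239), whereas a second, dimmer Anln probe was called higher at 0.54 (limma adjusted p = 0.0444). Hmmr, Kif20a and Ect2 were below background, and Racgap1 was not analysed here.

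Of the genes that end mitosis, Cdc20, the activator of the anaphase ligase, had a log2 signal of 11.30 with siTARBP2-1 and 11.58 with siTARBP2-2, against 11.47, 11.49 and 11.47 on the control arrays. The differences were -0.18 and 0.10, with limma adjusted p of 0.349 and 0.608. The dimmer kept Cdc20 probes gave -0.07, -0.15 and -0.15 with siTARBP2-2, and -0.19, -0.12 and -0.01 with siTARBP2-1. Ube2c, the ubiquitin-conjugating enzyme of the anaphase ligase, was dim and differed by -0.16 with siTARBP2-1 and 0.30 with siTARBP2-2. Pttg1, the securin gene, was dim, at 5.86 with siTARBP2-1 and 5.60 with siTARBP2-2, against 5.66, 5.48 and 5.47 on the control arrays. It had the highest difference of the 28 genes with siTARBP2-1, at 0.32, which did not pass (limma adjusted p = 0.177), and 0.07 with siTARBP2-2. Top2a, which untangles sister chromatids, had a log2 signal of 10.55 with siTARBP2-1 and 10.68 with siTARBP2-2, against 10.60, 10.52 and 10.52 on the control arrays. The 95% interval of its siTARBP2-1 difference ran from -0.26 to 0.26, so shifts within that interval could not be told from 0. Mki67 was not analysed here. The 11 probes of the 10 genes below background had raw signals of 51.2 to 81.4.

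The siRNAs were then set against each other directly, 1 array each, with the spread taken from the controls. Cenpa and Cdc25b were lower with siTARBP2-1 than with siTARBP2-2. That is 2 of 28 genes called lower, where 3.34% of all genes were, and 0 called higher, where 3.72% were (7.06% in either direction). Cenpa differed by -1.17 ± 0.15 (SE), a level 44.5% of that with siTARBP2-2 (limma adjusted p = 0.00981, 95% interval -1.52 to -0.82). Cdc25b differed by -0.77 ± 0.14, a level of 58.8% (limma adjusted p = 0.0256, 95% interval -1.10 to -0.43). Next were Ndc80 at -0.59, Spc25 at -0.52 and Foxm1 at -0.47, with limma adjusted p of 0.101, 0.0658 and 0.0897. The second, dim Ndc80 probe went the other way, at 0.56 (limma adjusted p = 0.244). The highest were Pttg1 at 0.26, Anln at 0.21 and Kif2c at 0.18, none of which passed. At an unadjusted p under 0.05 limma gave 6 lower and 0 higher, where 13.4% and 12.1% of all genes were. In all, 22 of the 28 (78.6%) were lower with siTARBP2-1, against 52.8% of all genes, and the median was -0.16, against -0.02 over all genes. By role, the median was lowest for the 4 kinetochore genes at -0.55 and the 5 cyclin-CDK genes at -0.32, and -0.06 for the 4 checkpoint genes. Of the kinetochore genes, Spc24 differed by 0.03. Without siControl-2, Cenpa alone passed, with a limma adjusted p of 0.0695 for Cdc25b. Without siControl-1, 4 genes passed, Ndc80 (0.0371) and Spc25 (0.0495) beside Cenpa and Cdc25b. There 460 of 8711 genes were called lower, against 298 of 8927 in the fit reported.

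Pooling both siRNAs against the controls, limma called 0 of the 28 genes in either direction, where 0.0112% of all genes, Tarbp2 alone, was called. Tarbp2 itself missed when any 1 control array was left out (limma adjusted p = 0.297 to 0.489). At an unadjusted p under 0.05 the fit gave 1 lower mitosis gene, Foxm1, and 1 higher, Birc5, where 6.03% and 6.88% of all genes were. Foxm1 differed by -0.40 ± 0.15 (SE; limma adjusted p = 0.363) and Birc5 by 0.27 ± 0.11 (limma adjusted p = 0.383). Ccna2 and Aurka were next lowest, at -0.27 and -0.25. Cenpa, whose 2 knockdown arrays lay on opposite sides of the controls, differed by -0.24 ± 0.30 (limma adjusted p = 0.785). Both knockdown arrays were below every control array for 4 of the 28 genes (14.3%), against 15.1% of all genes. These 4 were Foxm1, Plk1, Bub3 and Kif2c. The siTARBP2-1 array, whatever siTARBP2-2 did, was below every control for 18 of the 28 (64.3%), against 35.6% of all genes, and above every control for 3 (10.7%), against 32.9%. The siTARBP2-2 array was below every control for 5 (17.9%), against 32.1%, and above every control for 12 (42.9%), against 36.9%. Among the controls themselves, the median of the 28 genes on 1 array minus the other controls ran from -0.04 for siControl-3 to 0.07 for siControl-1. In the authors' deposited table, which gives 1 log2 value per accession, the 28 genes ran from -0.32 (Foxm1) to 0.20 (Birc5). There a mark of 1 stands for up-regulated and 0 for background, so a lower gene has no mark of its own. Birc5 and Anln were among the accessions marked 1, as were 8.67% of all accessions.

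Of 127 other mitotic genes listed, 95 were tested. The 2 of these called lower with siTARBP2-1 are a smaller share than the 3.78% of all genes, and the 1 called lower with siTARBP2-2 is a smaller share than 2.52%. With siTARBP2-1, Kif18b, a kinesin gene, and Depdc1b fell by 0.55 and 0.62 on the log2 scale (limma adjusted p = 0.044 and 0.0325). None was called higher, where 3.88% of all genes were, and the median was -0.16. With siTARBP2-2 only Cdc14b, an exit phosphatase gene, was called, and it fell by 0.78 (limma adjusted p = 0.0213), with a median over the list of 0.05. Between the siRNAs, Smc2, a dim condensin gene, and Depdc1b were lower with siTARBP2-1 (-0.70 and -0.68, limma adjusted p = 0.0323 and 0.0467), where 3.34% of all genes were called lower. Cdc14b was higher (0.73, limma adjusted p = 0.0254), where 3.72% of all genes were called higher. Without siControl-2 none of these 4 genes passed in any of these comparisons (limma adjusted p = 0.0686 to 0.101).

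DNA replication and S-phase genes are active earlier in the cycle. Of 36 tested, Tk1, Ccne1 and Pola2, which act in thymidine salvage, S-phase entry and primer synthesis, fell with siTARBP2-1 (-0.74, -0.64 and -0.51, limma adjusted p = 0.0134, 0.0208 and 0.0455). Of the 36, 32 (88.9%) were negative, against 51.8% of all genes, and the median was -0.26, against -0.01. The 3 called lower stand beside 3.78% of all genes. With siTARBP2-2, Rrm2, a ribonucleotide reductase gene, was the only one of the 36 called, where 2.52% of all genes were called lower. It fell by 0.67 (limma adjusted p = 0.0422), and the median of the list was 0.05. Of 17 DREAM, MuvB and E2F regulators tested, E2f5 and Tfdp1 fell with siTARBP2-1 (-0.60 and -0.56, limma adjusted p = 0.0238 and 0.0327), where 3.78% of all genes were called lower. None of the 17 was called with siTARBP2-2, where 4.27% of all genes were called in either direction. Without siControl-2 none of these 6 genes passed (limma adjusted p = 0.0542 to 0.126). Of 7 CDK inhibitor genes none was called with either siRNA, where 7.65% of all genes were called with siTARBP2-1 and 4.27% with siTARBP2-2. Cdkn1a, the p21 gene, had a log2 signal of 11.79 with siTARBP2-1 and 11.83 with siTARBP2-2, against 11.31, 11.48 and 11.26 on the control arrays. Both knockdown arrays were above all controls, and its differences of 0.44 and 0.48 had limma adjusted p of 0.0937 and 0.0907. With no background correction both passed, at 0.43 and 0.47 (limma adjusted p = 0.019 and 0.0164). That setting called 615 of all genes higher with siTARBP2-1 and 463 with siTARBP2-2, against 346 and 156 in the fit reported. Of the 9 fibroblast markers tested, Col1a1, Col3a1 and Pdgfra fell with siTARBP2-1 (-0.65, -0.59 and -0.79, limma adjusted p = 0.0214, 0.0245 and 0.0211), and Col1a1 fell by 0.55 with siTARBP2-2 (limma adjusted p = 0.0491). Of all genes, 3.78% were called lower with siTARBP2-1 and 2.52% with siTARBP2-2. None of the 9 was called higher with either siRNA, where 3.88% and 1.75% of all genes were. Of those not called, Dcn differed by 0.27 with siTARBP2-1 and 0.42 with siTARBP2-2, Col5a1 by 0.14 and 0.25, and Vim by 0.12 and -0.03. S100a4 differed by -0.44 and -0.54, Pdgfrb by -0.38 and -0.17, and Col1a2 by -0.04 and -0.01, in that order. With siTARBP2-2, Col3a1 and Pdgfra differed by 0.13 and 0.32. Between the siRNAs, Pdgfra (-1.10, limma adjusted p = 0.0156) and Col3a1 (-0.72, limma adjusted p = 0.0258) were lower with siTARBP2-1, where 3.34% of all genes were called lower. Pdgfra was dim, with a raw signal of 82.4 with siTARBP2-1 and 121.7 with siTARBP2-2. The part of the fibroblast markers in the mitosis genes' differences was not tested.

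**Figure D4:**
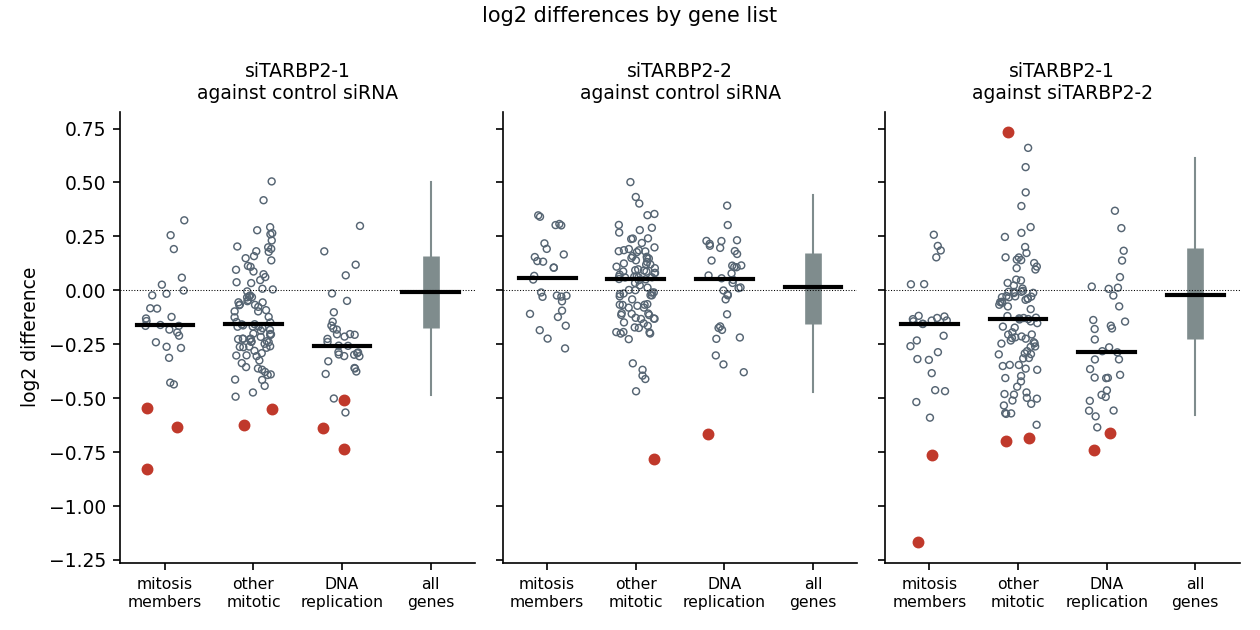
Log2 differences of single genes (points) in the mitosis, other mitotic and DNA replication lists, for siTARBP2-1 and siTARBP2-2 against control and for siTARBP2-1 against siTARBP2-2. Black bars are medians, filled red points are called genes, and the grey bar and line span the quartiles and the 5th to 95th percentiles of all genes. The mitosis genes' median is -0.16 for siTARBP2-1 against control and 0.06 for siTARBP2-2 against control.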

How the data were processed

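RNA of 5 samples was measured on Illumina BeadChips. The deposited table gives for each of 25697 probes a non-normalized linear intensity and a detection p-value, as the file headers name them; scanner settings and probe summary are not stated. A second table, deposited by the authors, holds normalized intensity values. Another holds the authors' log2 fold change and a score of 1 (up-regulated) or 0 (background) for each accession. The submitters' processing notes name lumi without a version. The detection p-values next to siTARBP2-2 did not follow that array's signals (Spearman 0.000598 across probes). For probes of equal signal rank, the average over the remaining 4 arrays was used in their place, which was decided after seeing the data.

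Signals were processed with neqc (limma 3.58.1, R 4.3.3, offset 16) on a log2 scale. The filter left 13123 probes, those whose detection p was under 0.05 on 2 arrays or more. A gene was read from its kept probe with the highest mean signal, and 23978 probes had 1 symbol, 0 several and 1719 none. limma's lmFit and eBayes, two-sided, tested all kept probes, with Benjamini-Hochberg adjustment and a threshold of 0.05. A called gene is one past that threshold. The fit with 1 coefficient per siRNA left 2 residual degrees of freedom, and the pooled fit left 3. No depth is defined for arrays, and their number limits the precision: the median SE of the mitosis genes was 0.12 for siTARBP2-1. Fitting was tested on simulated data in which both knockdown arrays carried the same changes. A difference between the siRNAs was not simulated. Named genes were those called, the 3 highest and 3 lowest per comparison and a list of core mitosis genes; the remaining measured genes are given so that each is accounted for. From the other lists, called genes were named, with Tarbp2, Cdkn1a and the remaining fibroblast markers tested. The members and lists were chosen with earlier results of these data known. The design text speaks of metastatic, mock-transfected cells, and the labels were followed. Alternatives were background correction, offset, scaling, the authors' normalized table, the filter, probe averaging, each array left out and a replicate block.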

Additional observations from a re-analysis of the deposited data

Results flagged for a closer look

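The difference between the siRNAs was tested directly, siTARBP2-1 minus siTARBP2-2, in log2 units with limma over all genes. The lists held 28 mitosis genes, 95 other mitotic genes, 36 DNA replication genes and 17 DREAM, MuvB and E2F regulators tested. Of them 7 differed, a smaller share than the 7.06% of all genes called. Among the mitosis genes these were Cenpa (-1.17, adjusted p = 0.00981) and Cdc25b (-0.765, adjusted p = 0.0256). In the other mitotic genes they were Cdc14b (0.734, adjusted p = 0.0254), Smc2 (-0.699, adjusted p = 0.0323) and Depdc1b (-0.683, adjusted p = 0.0467). In the DNA replication genes they were Pola2 (-0.739, adjusted p = 0.0275) and Cdt1 (-0.663, adjusted p = 0.0362). Each siRNA is 1 array, so these are differences between 2 arrays, and of the 7 only Cenpa passed without siControl-2.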

How the results depend on the processing

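No called gene reversed under the alternatives tried, but the pooled median changed sign without siTARBP2-1, and some uncalled genes near 0, such as Bub1b with siTARBP2-1 under median scaling, changed sign too. Against control, siTARBP2-1 called 1 to 3 mitosis genes lower when 1 array was left out, the 1 being without siControl-2, and 4 with Ndc80 added under no background correction, an offset of 50, median scaling or the authors' normalized table (adjusted p = 0.0394 to 0.0473). Its median of -0.163 was -0.287 with median scaling, which shifts the median of all genes to -0.116, and -0.109 with no filter on dim probes, which adds the 10 genes below background. With siTARBP2-2, 1 gene, Birc5, was called higher with no background correction, with an offset of 50 and in the authors' normalized table. For both siRNAs together, the median of -0.0611 was -0.113 with median scaling and -0.00398 with no filter. Leaving out 1 knockdown array gave -0.162 to 0.0579, and 0 to 3 genes called lower over all arrays left out. Between the siRNAs, 5 genes were called lower with no background correction, an offset of 50, median scaling or the authors' normalized table, and 1 to 4 when 1 control array was left out; the median of -0.156 was -0.334 with median scaling, where all genes shifted to -0.148. Except where shown by the setting's own construction, the cause was not tested. Over all genes, 248 were higher and 571 lower with median scaling for siTARBP2-1, against 346 and 337 in the fit reported, and 266 and 630 between the siRNAs, against 332 and 298. With no background correction these counts were 615 and 605 for siTARBP2-1, 463 and 491 for siTARBP2-2 (156 and 225 in the fit reported) and 612 and 649 between the siRNAs. In the same order, an offset of 50 gave 605 and 586, 437 and 472, and 593 and 631. The authors' normalized table gave 621 and 600, 461 and 494, and 608 and 640. Calls over all genes thus rose under these settings, as did those of the mitosis genes. Without siControl-2 these counts were 138 and 119, 23 and 32, and 165 and 105. With no filter siTARBP2-2 gave 33 and 50. The replicate block on the pooled comparison gave a median of -0.0584 and 0 mitosis genes called. Same-numbered arrays had deviations correlating at -0.0584 and -0.0216 over 8927 genes. The 2 knockdown arrays carry different siRNAs and deviate from their mean as mirror images. These correlations therefore cannot show whether the numbers pair the arrays. The block could not be fitted for single siRNAs. Of the calls, Cenpa held in all 11 alternatives against control and all 10 between the siRNAs, Foxm1 in 10 of 11 and Cdc25b in 8 of 11. Cdkn1a was called higher with both siRNAs under no background correction, an offset of 50 and the authors' normalized table (adjusted p = 0.016 to 0.0236). Ccna2, a dim gene, had the largest SE of the mitosis genes (0.204 with siTARBP2-1), and the 10 genes below background carry no result.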
